A study of Arabidopsis thaliana with 9 samples.

Results

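Transcript levels were compared directly between iae1 and iae2, a pair of Arabidopsis thaliana lines, on 6 of the 9 arrays of the series, 3 arrays for each line. The other 3 arrays hold the line B1798 and served here only to place the levels of the iae lines. All lines are labelled as the Ler ecotype, were fed sucrose in a growth room, and gave RNA from young plants, taken from the crown, hypocotyl, cotyledons and bud of the apical meristem. The labels name iae1, iae2 and B1798 only as lines: they give no allele, no clone or generation and no role for B1798, and a pool of 30 plants is stated for the series with no unit attached.

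The iae lines are known for increased excision of Ac, the maize transposon Activator, and the title of the series gives the genetic basis of their phenotypes as its subject. Ac is an autonomous element: it encodes a transposase that cuts it out of the chromosome and inserts it elsewhere, and the host repairs the gap it leaves. Host genes for chromatin, DNA repair and replication are known to affect such elements in plants. The direct comparison asks what separates the lines in transcript levels, and each difference is given as iae2 minus iae1.

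A probe set, the group of short probes that reads a transcript, was tested when its signal reached the 40th percentile of its own array on at least 3 of the 6 arrays. That level was a signal of 24.1 to 26.1, and 13876 of 22746 probe sets that are not controls met it. The annotation gave 1 gene for 7527 of the tested probe sets, several genes for 280 and none for 6069, which are unnamed here. Fold changes are on the log2(signal + 16) scale, which understates the change of dim probe sets, and calls were made with limma at an adjusted p below 0.05. Levels are compared between lines and never between genes.

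Arrays of a line resembled each other more than arrays of different lines. Pearson's r across probe sets, which do not count as independent replicates, was 0.987 to 0.989 within iae1, 0.988 to 0.990 within iae2 and 0.963 to 0.968 between them. Signs of RNA quality also moved with the line. The GAPDH 3'/5' signal ratio, which is higher where RNA is more broken or cDNA is shorter, was 2.46, 2.48 and 2.32 on the iae1 arrays and 1.73, 1.88 and 1.98 on the iae2 arrays. The lines did not overlap, and the exact two-sided permutation p of 0.1 is the smallest that 3 arrays against 3 can give. The actin ratio was 2.30 ± 0.154 (SD, n = 3) in iae1 and 1.99 ± 0.271 in iae2 (exact p = 0.2), and the 25S rRNA signal was 4847 ± 384 and 2887 ± 1058 (exact p = 0.1), with 1666 on iae2 replicate 2. Scanner background averaged 61.7 ± 1.76 in iae2 and 58.3 ± 8.24 in iae1 (exact p = 0.4), where replicate 3 had 67.81.

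With the GAPDH ratio added to the model, 38 probe sets stayed called of the 2940 called without it. The median size of their log2 differences went from 0.44 to 0.43, the median standard error rose from 0.0951 to 0.316, and 2702 of the 2940 kept their sign. All 38 that stayed called had at least 2-fold differences in that model. The ratio and the line move together on these arrays, so their parts cannot be told apart, whether a call was kept or lost. This stands beside every result given here. Of the 102 named probe sets that were called, 74 had a log2 difference within 1.5 times of the first when the ratio was in the model, 10 had a larger and 18 a smaller or reversed difference. Smaller ones included AOP3 (from -1.33 to -0.45), petN (from -1.18 to -0.52), PDF1.4 (from -1.02 to -0.52), UGT78D1 (from 0.69 to 0.11) and bHLH121 (from 0.49 to 0.11), examples chosen after their values were seen.

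Between the lines 2940 of 13876 tested probe sets were called, 21.2% of them, with 1531 higher in iae2 (11.0%) and 1409 lower (10.2%). Most of these differences were small: the median size was 0.44 on the log2 scale, or 1.35-fold. At least 2-fold differences numbered 197 (1.42%), of which 129 were higher in iae2 (0.930%) and 68 lower (0.490%). At least 4-fold differences numbered 19 in the higher direction and 3 in the lower. No overlap between the arrays of iae1 and iae2 was seen for 2901 of the 2940 called probe sets, beside 36.4% of all those tested. At an unadjusted p below 0.05 there were 4585 probe sets. The number with at least 2-fold change depends on the constant added before taking logs: it was 305 with log2(signal + 4) and 80 with log2(signal + 64).

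**Figure D1:**
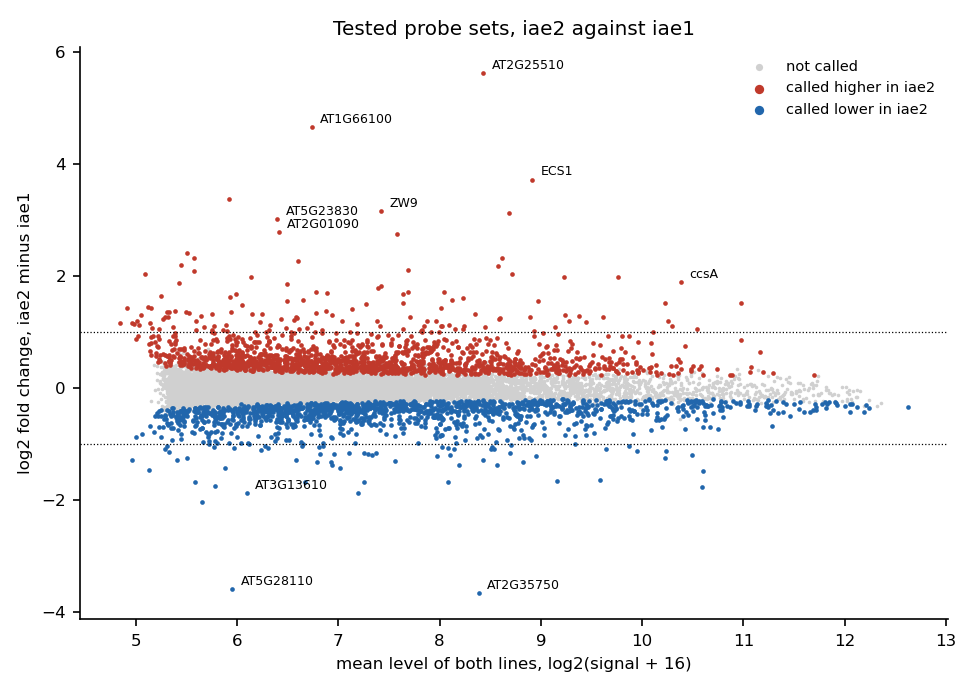
Each point is a tested probe set, with its mean level in both lines, log2(signal + 16), on the horizontal axis and its log2 fold change, iae2 minus iae1, on the vertical axis. Red and blue points are the 1531 and 1409 called higher and lower in iae2, grey points are not called, and the dotted lines mark a 2-fold change. The highest point is AT2G25510 at 5.62 and the lowest AT2G35750 at -3.67.

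The gene highest in iae2 relative to iae1 was AT2G25510, to which the tables used give no role. Its signal was 38.9, 27.8 and 33.3 on the iae1 arrays and 2270, 2545 and 2376 on the iae2 arrays. The iae1 arrays lay close to the level of B1798 (34.5, 52.3 and 54.8), and the log2 difference was 5.62 ± 0.09 (SE, adjusted p = 4.17e-13). AT1G66100 encodes a member of the thionin family, small cysteine-rich peptides that act against microbes. It had signals of 5.9, 5.1 and 5.0 in iae1, below the level used to filter, and 483.3, 519 and 553.6 in iae2 (log2 difference 4.65 ± 0.09, adjusted p = 2.2e-12). In B1798 it was as dim as in iae1, at 6.9 ± 3.8 (SD, n = 3). ECS1, which encodes a protein of the cell wall, had 97.6, 127.5 and 126.1 in iae1 and 1461, 1888 and 1844 in iae2 (3.71 ± 0.11, adjusted p = 2.96e-10). Its signal in B1798 was 180.5 ± 19.3 (SD, n = 3), somewhat above iae1 and far below iae2. All 3 genes kept their call with the GAPDH ratio in the model.

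ZW9, a gene of the TRAF-like family, had 59.9, 29.3 and 37.3 in iae1 and 491.4, 509.2 and 473.6 in iae2 (log2 difference 3.16 ± 0.15, adjusted p = 1.32e-08). AT5G23830 encodes a protein of the MD-2-related type that binds lipids. Its signal was 17.7, 22 and 3 in iae1 and 209.4, 199.4 and 246.9 in iae2 (3.01 ± 0.20). AT2G01090 encodes the hinge protein of the mitochondrial cytochrome bc1 complex, which passes electrons from ubiquinol to cytochrome c. It had 12.3, 18.2 and 18.9 in iae1 against 186.2, 199.3 and 235.6 in iae2 (2.78 ± 0.12, adjusted p = 5.5e-09). AT5G37990, of the SABATH family of methyltransferases that act on small acids, rose from 28.3 ± 6.59 (SD, n = 3) to 196 ± 13.7 (2.27 ± 0.11). AT2G25450 is known as the 2-oxoglutarate-dependent dioxygenase gene that hydroxylates the side chain of an alkenyl glucosinolate. Its signal was 156.1, 173.1 and 162.8 in iae1 and 718.1, 813.8 and 864 in iae2 (2.18 ± 0.08, adjusted p = 2.4e-09), again with B1798 at the level of iae1 (174.5, 194.5 and 170.5). These 5 calls were kept with the GAPDH ratio in the model.

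The other leading genes higher in iae2 were AT5G45500 (log2 difference 2.40), AT2G07777 (2.20), AT5G24570 (2.10), AT3G43740, of a leucine-rich repeat family (2.08), AT1G76960 (2.02) and AT5G44580 (2.02). Their adjusted p-values ran from 1.86e-09 for AT5G44580 to 2.99e-07 for AT5G24570, and AT5G45500 and AT5G44580 kept their call with the GAPDH ratio in the model. AT1G76960 was near 0 in iae1, with 0.5, 0.5 and 1.7, and in B1798, with 0.4, 0.4 and 1.0, and read 51.3, 50 and 57 in iae2. AT5G44580 was a brighter case, at 193 ± 11.5 (SD, n = 3) in iae1, 833 ± 36.6 in iae2 and 190.2 ± 17.6 in B1798. The leading probe set with no gene name, 245627_at, had 2.3, 2.1 and 4.2 in iae1, 198.4, 167 and 170 in iae2 and 38.6, 37.7 and 28.3 in B1798 (3.36 ± 0.11, adjusted p = 6e-10), so that B1798 lay between the lines. This call too was kept with the GAPDH ratio.

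On the log2(signal + 16) scale the largest fall in iae2 was that of AT2G35750. It had 1206, 1230 and 1103 in iae1 and 80.4, 82.7 and 71.1 in iae2. The log2 difference was -3.67 ± 0.08 (SE, adjusted p = 6.9e-12), and the tables used give the gene no role. Here B1798, at 76.7, 80.7 and 115, had the level of iae2. The pseudogene AT5G28110 gave 165.9, 234.5 and 199.9 in iae1 and only 3.1, 0.7 and 1.4 in iae2 (-3.60 ± 0.13, adjusted p = 1.14e-09). Its probe set can cross-hybridise with other transcripts, and B1798 read 1.5, 1.3 and 1.1. AT2G26630, also annotated as a pseudogene, had 72, 99.8 and 84.4 in iae1, 16.6, 11.8 and 12.9 in iae2 and 11.9, 15.6 and 10.7 in B1798 (-1.76 ± 0.13). AT3G13610 encodes feruloyl-CoA hydroxylase, the enzyme that commits phenylpropanoids to the coumarin scopoletin. It had 109.9, 100.7 and 136.4 in iae1 and 16.6, 21.8 and 20.4 in iae2 (-1.88 ± 0.12, adjusted p = 2.85e-07). The B1798 arrays gave 43.9, 14.8 and 20.6, of which replicate 1 stood above iae2. The leading probe set with no gene name in this direction, 265917_at, fell from 85.9 ± 5.55 (SD, n = 3) in iae1 to 8.8 ± 0.173 in iae2 (-2.04 ± 0.11, adjusted p = 4.98e-08), with 2.87 ± 1.5 in B1798.

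BGLU46 encodes a beta-glucosidase that releases monolignols, the precursors of lignin, from their glucosides. Its signal was 168.8, 174 and 156.4 in iae1 and 40.1, 47.3 and 35.8 in iae2 (log2 difference -1.68 ± 0.10, adjusted p = 1.42e-07), and B1798 lay near iae1 with 132.5, 127.3 and 142.5. AT4G22212, which encodes a defensin-like protein, had 894.6, 1009 and 1129 in iae1 and 291.2, 312.8 and 309.2 in iae2 (-1.67 ± 0.09, adjusted p = 4.3e-08). AOP3, a dioxygenase gene that converts the side chain of methionine-derived glucosinolates, had 167.9, 200.4 and 160.6 in iae1 and 48.8, 63.2 and 70.9 in iae2 (-1.33 ± 0.12, adjusted p = 5.39e-06). AT5G35940, a lectin gene of the jacalin type, fell from 258 ± 28.3 (SD, n = 3) to 69.1 ± 7.05 (-1.69). The remaining leading genes lower in iae2 were AT5G03090 (-1.68), AT4G25580, which encodes a CAP160 protein (-1.48), AT3G20340 (-1.44), AT2G07140 (-1.43, read by probes that can cross-hybridise), AT5G23840 (-1.39) and AT5G04120, of the phosphoglycerate mutase family (-1.30). Of the 28 leading genes, 13 kept their call with the GAPDH ratio in the model, and among the 14 lower in iae2 these were AT2G35750, AT5G28110 and AT4G22212.

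**Figure D2:**
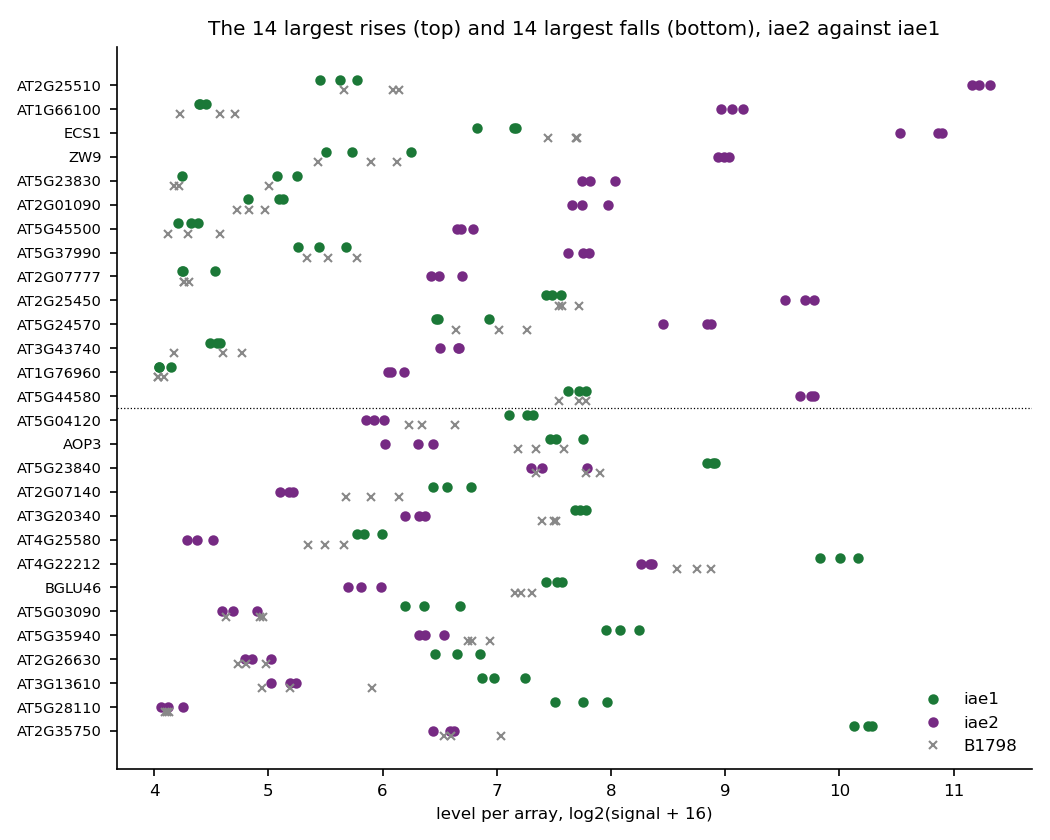
Each row is a gene and each symbol an array, on the log2(signal + 16) scale: green circles for iae1, purple circles for iae2 and grey crosses for B1798, 3 of each. Above the dotted line are the 14 largest rises and below it the 14 largest falls in iae2 against iae1, and green and purple do not overlap in any row, which the choice of the genes required.

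Few probe sets were dim in 1 line and also bright in the other. Of all tested probe sets, 5 were below the filter level on every iae1 array and at least 4 times that level on every iae2 array. They were AT1G66100, AT5G23830, AT2G01090 and the unnamed 245627_at and 252170_at, the last with 19.5, 19.2 and 20 in iae1 and 124.5, 119.4 and 128.2 in iae2, and it was chosen after its values were seen. The reverse pattern was met by 2, AT5G28110 and AT3G13610. B1798 was dim for 6 of these 7 on all its arrays or on all but replicate 1. For 245627_at it was above the filter level on each of its arrays. The limit of 4 times the filter level left out other probe sets that were dim in 1 line. Among the leading genes, AT1G76960 had a mean signal of 0.9 in iae1 and 52.8 in iae2. The means were 3.8 and 88.7 for AT5G45500, 4.4 and 77.3 for AT2G07777, and 7.2 and 82.1 for AT3G43740. In the reverse direction AT4G25580 had 42.6 in iae1 and 5.0 in iae2.

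Placing B1798 on the scale from iae1 to iae2 describes where its level sits for the probe sets that separate them. B1798 was nearer to iae1 for 2012 of the 2940 called probe sets (68.4%) and nearer to iae2 for 928, beside 57.1% nearer to iae1 over all tested probe sets. Among probe sets at least 2-fold higher in iae2 it was nearer to iae1 for 110 of 129 (85.3%), and among those at least 2-fold lower for 47 of 68 (69.1%). For the 14 leading genes higher in iae2 B1798 lay between -0.13 and 0.17 on the scale where iae1 is 0 and iae2 is 1. The 14 leading genes lower in iae2 were mixed. AT5G28110 (1.01), AT2G26630 (1.03), AT2G35750 (0.95), AT5G03090 (0.94), AT3G13610 (0.90) and AT5G23840 (0.87) had B1798 next to iae2. BGLU46 (0.17), AOP3 (0.16), AT3G20340 (0.18) and AT4G25580 (0.25) had it next to iae1, and the other 4 lay between 0.48 and 0.75. The GAPDH ratio on the B1798 arrays was 2.27, 2.80 and 3.11, and the actin ratio 2.80, 2.45 and 2.67. Both were nearer to iae1 than to iae2, while the 25S rRNA signal (3542, 3246 and 4068) lay between the means of the lines. The part of RNA quality in the places of B1798 was not tested. These places are descriptions with no test, and the labels do not call B1798 a control.

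**Figure D3:**
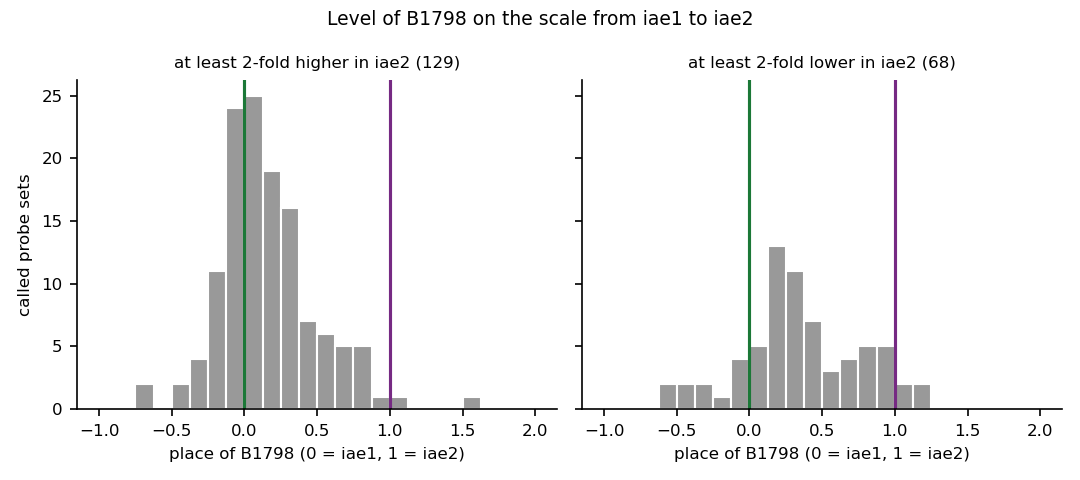
The bars count called probe sets, at least 2-fold higher in iae2 on the left (129) and at least 2-fold lower on the right (68), by the place of the mean level of B1798 on the log2 scale from iae1 (0, green line) to iae2 (1, purple line). The left bars gather around 0, with a median of 0.10, and the right bars are spread more widely, with a median of 0.29.

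Gene lists were then read, with the brightest probe set standing for a gene. Of 7469 tested genes, 1507 were called (20.2%), 774 higher in iae2 (10.4%) and 733 lower (9.81%), and their median log2 difference was -0.01. At least 2-fold differences were called for 121 of these genes (1.62%). Each list count below is a description beside these shares. Many lists had few tested members, since most of their loci had no named probe set that was tested. In these whole-tissue samples fewer cells of a type and less RNA per cell cannot be told apart.

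**Figure D4:**
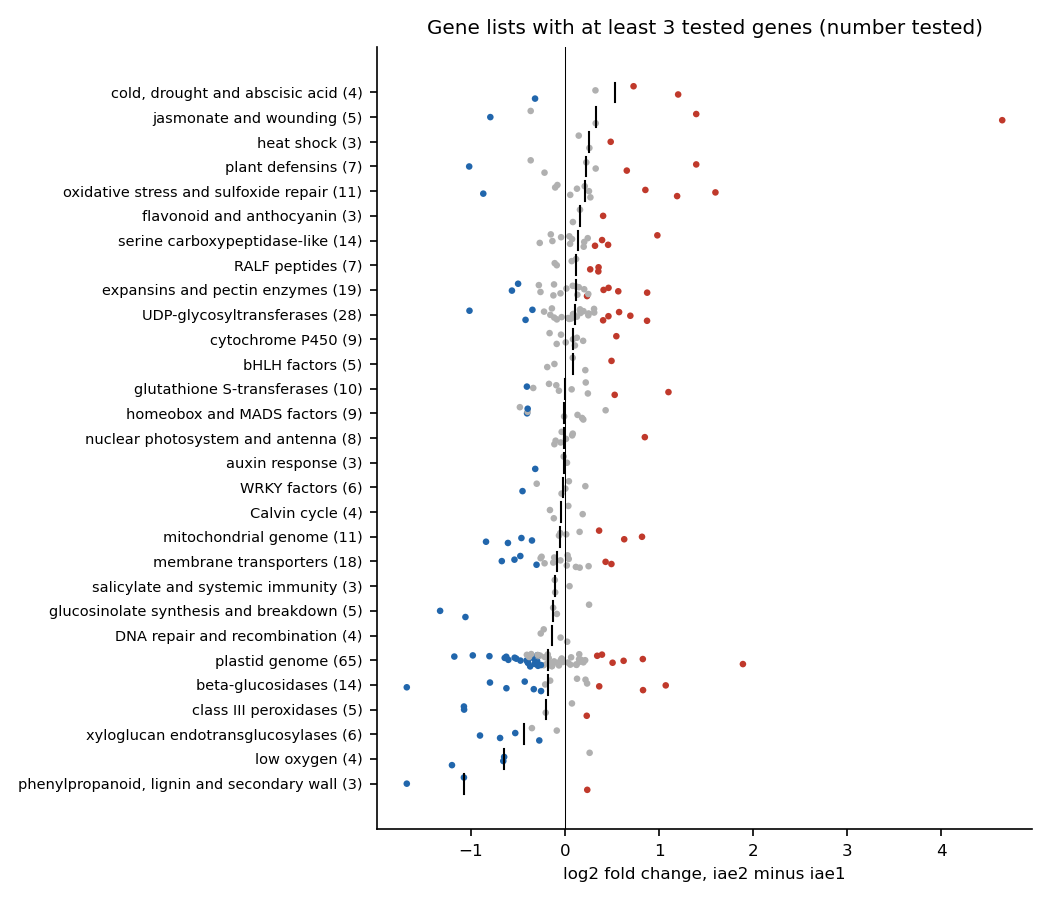
Each point is a tested gene of a list, placed by its log2 fold change, iae2 minus iae1, in red where called higher in iae2, blue where called lower and grey where not called. Black bars are list medians, numbers in brackets give the tested genes, and only lists with at least 3 of them are drawn. The far right point is AT1G66100 at 4.65 in the jasmonate and wounding list.

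Peptide defence genes differed in both directions. Jasmonate is a lipid-derived hormone of wounding and defence against insects and fungi, and thionins and plant defensins are among its known targets. Of 5 tested genes of the jasmonate and wounding list, AT1G66100 and PDF1.2 were higher in iae2 and THI2.1 was lower. PDF1.2, a plant defensin gene, had 72.9, 66.4 and 73.2 in iae1 and 222.5, 197.1 and 218 in iae2 (log2 difference 1.40 ± 0.09, adjusted p = 2.07e-07), both above B1798 (25.8, 27.2 and 32). THI2.1, a thionin gene, had 330.6, 313.4 and 303 in iae1 and 189.2, 172.4 and 165.3 in iae2 (-0.79 ± 0.08, adjusted p = 1.61e-05), both below B1798 (388.7, 368 and 394.8). PDF1.2b, read by probes that can cross-hybridise, did not pass, with overlapping arrays (294.3, 404 and 546.5 against 464.3, 440.9 and 643.2, adjusted p = 0.233). Neither did LCR67 (adjusted p = 0.0612). PDF1.2b was called with a replicate block or without iae1 replicate 3, and LCR67 with no intensity trend or with array weights. In the wider defensin list of 7 tested genes, LCR68 was also higher in iae2 (0.66, from 652 ± 28.6 to 1037 ± 22.7, SD, n = 3) and PDF1.4 lower (-1.02, from 577 ± 53.1 to 277.5 ± 32.3). AT4G22212, for a defensin-like protein, lies outside that list and was lower in iae2 (-1.67). The salicylate list held 3 tested genes with 0 called, and the values were -0.10 for GRX480, -0.11 for SAG101 and 0.05 for AT5G03350 (adjusted p = 0.548 to 0.868).

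Glucosinolates are sulfur-rich defence compounds of the cabbage family, built from methionine or tryptophan and cut by beta-glucosidases called myrosinases. Of 5 tested genes of that list, AOP3 and BCAT4 were lower in iae2 and 0 were higher. BCAT4, an aminotransferase gene that starts the chain elongation of methionine, had 477.3, 538 and 524.5 in iae1 and 227.6, 264.2 and 224.2 in iae2 (log2 difference -1.06 ± 0.08, adjusted p = 1.98e-06). AOP1 (-0.12), the glycosyltransferase gene UGT74B1 (-0.09) and AT2G31790 (0.26) did not pass. AT2G25450, which lies outside that list, was 4.52-fold higher in iae2. GTR2, a glucosinolate transporter gene, was higher in iae2 by 0.43 (adjusted p = 0.0068).

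Phenylpropanoid metabolism makes lignin, coumarins and flavonoids from phenylalanine. Of its 3 tested lignin and secondary wall genes, BGLU46 and PRX52 were lower in iae2. PRX52, a class III peroxidase gene linked to lignin, had 79.2, 68.5 and 76.8 in iae1 and 27.3, 27.4 and 26.7 in iae2 (log2 difference -1.07 ± 0.10, adjusted p = 9.47e-06), with B1798 above both (105.8, 110 and 109.7). HCT, of monolignol synthesis, was higher by 0.24 (adjusted p = 0.0487), which failed on dropping any array except iae1 replicate 2 (adjusted p up to 0.159). In the class III peroxidase list of 5 tested genes, Prx37 also fell, from 98.5 ± 14.1 (SD, n = 3) to 38.7 ± 8.53 (-1.07, adjusted p = 8.37e-05). PRXR1 was higher by 0.23 (adjusted p = 0.0455), and did not hold when replicate 2 or 3 of either line was dropped (adjusted p up to 0.201). Of 3 flavonoid genes DFR, the dihydroflavonol reductase gene, was higher by 0.41 (adjusted p = 0.0456), and failed in the same 4 fits (adjusted p up to 0.162).

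Beta-glucosidases remove glucose from defence compounds, lignin precursors and hormones. Of 14 tested BGLU genes, 3 were higher in iae2 and 6 lower, or 5 called in all without iae1 replicate 3. BGLU45, like BGLU46 active on monolignol glucosides, fell from 51.9 ± 5.35 (SD, n = 3) to 23.2 ± 4.46 (log2 difference -0.80), and BGLU15 from 171 ± 18.8 to 105 ± 6.14 (-0.62). BGLU28, a gene known from sulfur starvation, was higher in iae2: it had 59.9, 53.5 and 51.7 in iae1 and 137.8, 141.4 and 120.9 in iae2 (1.07 ± 0.10, adjusted p = 5.48e-06). B1798 was higher still, with 239.7, 225.5 and 163.8. BGLU44 rose from 452 ± 5.90 to 816 ± 37.4 (0.83, adjusted p = 3.38e-06).

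Genes of wall loosening were called in both directions. Xyloglucan endotransglucosylases (XTH) cut and rejoin the xyloglucan chains that tie cellulose fibres, and 4 of 6 tested members were lower in iae2 and 0 higher, with a list median of -0.44. XTH18 had 371.9, 317.7 and 290.8 in iae1 and 178.7, 155 and 166.7 in iae2 (log2 difference -0.90 ± 0.10, adjusted p = 2.38e-05). XTH19 had 308.4, 394.1 and 384.4 against 218.9, 197.1 and 238 (-0.69 ± 0.10), and XTH16 had 261.2, 273.9 and 301.5 against 168.7, 185.2 and 213.2 (-0.53 ± 0.09). The B1798 means lay between the lines for these 3 genes. Of 19 expansin and pectin genes 5 were higher and 2 lower, a count of 7 that fell to 4 without iae1 replicate 3 or iae2 replicate 2 and to 3 with the filter set at the 60th percentile. The expansin-like gene EXLB1 rose from 52.4 ± 10.3 (SD, n = 3) to 109 ± 11.8 (0.87), the expansin gene EXPA4 rose from 36.6 ± 4.92 to 62.2 ± 10.5 (0.57), and ATPMEPCRD, a pectin methylesterase gene, fell from 59.3 ± 6.5 to 35.1 ± 6.42 (-0.56). The other gene called lower was the expansin gene EXPB2 (-0.50, adjusted p = 0.0121), named here after its value was seen.

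Serine carboxypeptidase-like proteins include proteases and enzymes that transfer acyl groups from glucose esters. Of 14 tested SCPL genes 4 were higher in iae2 and 0 lower. SCPL45 had 18.9, 11.9 and 10.6 in iae1 and 45.7, 38.2 and 43.7 in iae2 (log2 difference 0.98 ± 0.14, adjusted p = 0.000227), with B1798 nearer to iae2 (34.9, 26.7 and 43.4). The RALF peptides, secreted signals read by receptor kinases such as FERONIA, had 3 of 7 tested members higher in iae2 and 0 lower. RALFL32 rose from 154 ± 10.6 (SD, n = 3) to 202 ± 15.4 (0.36, adjusted p = 0.0105). The calls of RALFL33 (0.35) and RALFL34 (0.27) were lost in several leave-one-out fits, with adjusted p-values up to 0.158 and 0.101. The receptor kinase genes FER (-0.13) and THE1 (-0.24) did not pass.

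Methionine sulfoxide reductases of type B repair oxidised methionine, and members of this family differed in sign. MSRB5 had 645, 912.9 and 824.6 in iae1 and 1727, 1660 and 2089 in iae2 (log2 difference 1.19 ± 0.12, adjusted p = 1.47e-05). MSRB6 rose as well, from 168.6, 128.1 and 172.8 to 301.8, 266.7 and 314.6 (0.85 ± 0.11). MSRB9 was lower in iae2, with 886.1, 891.2 and 802.9 in iae1 and 446.1, 479.4 and 466.1 in iae2 (-0.87 ± 0.07, adjusted p = 3.43e-06). GRXC1, a glutaredoxin gene of the same list, had 127.4, 165.6 and 179.5 in iae1 and 455.9, 506.7 and 557.8 in iae2 (1.60 ± 0.11, adjusted p = 6.01e-07). In all 3 of 11 tested redox genes were higher and 1 lower. Thioredoxin gene ATHM2 did not pass (0.27, adjusted p = 0.0555).

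Detoxification families held calls in both directions. Glutathione S-transferases join glutathione to reactive compounds. Of 10 tested members, GSTU16 rose from 154.8, 121.1 and 147.6 in iae1 to 319.2, 326.9 and 312 in iae2 (log2 difference 1.10 ± 0.09, adjusted p = 2.86e-06), GSTL3 rose from 437 ± 33.2 (SD, n = 3) to 636 ± 17.2 (0.53), and GSTU23 fell from 51.8 ± 1.21 to 35.2 ± 0.462 (-0.40). Without iae1 replicate 1 the family had 5 calls. Of 28 tested UDP-glycosyltransferases, which attach sugars to hormones and secondary metabolites, 5 were higher and 3 lower. UGT88A1 rose from 223 ± 3.69 to 422 ± 27.2 (0.87), UGT78D1, a flavonol rhamnosyltransferase gene, from 62.6 ± 6.99 to 112 ± 17.2 (0.69), and UGT76E2 fell from 58.8 ± 8.89 to 21.2 ± 6.22 (-1.01). Of 9 cytochrome P450 genes CYP71B26 was called, higher by 0.55 (adjusted p = 0.00343).

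Among genes of abiotic stress, COR15A and COR15B encode chloroplast proteins made in the cold. COR15B had 39.5, 45.2 and 54.8 in iae1 and 110.2, 128 and 145.5 in iae2 (log2 difference 1.20 ± 0.12, adjusted p = 1.29e-05), and COR15A had 14.8, 14.3 and 10 against 30.3, 29.3 and 36.7 (0.73 ± 0.13). The dehydrin gene COR47 went the other way by -0.32 (adjusted p = 0.0153), a call that failed when iae1 replicate 1 or iae2 replicate 2 was dropped (adjusted p up to 0.0702) and a direction that turned to 0.10 with the GAPDH ratio in the model. LTI30, the remaining tested gene of the list, had a difference of 0.32 and did not pass (adjusted p = 0.0678). Of 3 heat shock genes AT5G48570, a co-chaperone gene, was higher by 0.49 (adjusted p = 0.0144), and failed when iae2 replicate 1 or 2 was dropped (up to 0.0608).

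Known low-oxygen marker genes were lower in iae2, 3 of 4 tested. AT1G33055 had 389.6, 421.9 and 394.4 in iae1 and 158.9, 161.4 and 177.8 in iae2 (log2 difference -1.20 ± 0.08, adjusted p = 3.05e-07), with B1798 between them (269.6, 265.1 and 268.7). AT5G66985 had 121.1, 98.5 and 89.7 against 61.5, 53 and 63.5 (-0.65 ± 0.11), and AT1G19530 had 97.3, 100.7 and 102.3 against 62, 52.2 and 60.8 (-0.65 ± 0.09). B1798 lay below both lines for AT5G66985 (26 ± 6.36, SD, n = 3) and slightly below iae2 for AT1G19530 (50.1 ± 3.64). AT4G17260, a lactate dehydrogenase gene, did not pass (0.26, adjusted p = 0.154). ICL, the isocitrate lyase gene of the glyoxylate cycle that turns seed oil into sugar, fell from 63.9 ± 7.25 to 39.3 ± 4.91 (-0.53, adjusted p = 0.00497), and SDP1, for a lipase of oil bodies, did not pass (-0.20, adjusted p = 0.251).

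Few nuclear genes of photosynthesis were called. Of 8 tested photosystem and antenna genes LHCB4.2, which encodes the CP29 antenna protein of photosystem II, was called. It had 1446, 1562 and 1430 in iae1 and 2510, 2657 and 2872 in iae2 (log2 difference 0.85 ± 0.08, adjusted p = 6.25e-06), and its call was kept with the GAPDH ratio in the model. Its paralog LHCB4.1 had 4025, 3933 and 3835 against 3239, 3652 and 4063, with overlapping arrays (-0.11, adjusted p = 0.419). Of 4 Calvin cycle genes 0 were called: the values were 0.19 for PRK, -0.16 for SBPASE and -0.12 for RCA (adjusted p = 0.0957, 0.239 and 0.403).

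The plastid genome encodes core subunits of the photosystems and the other thylakoid complexes, the large Rubisco subunit, an RNA polymerase and part of its ribosome. Of its 65 tested genes 6 were higher in iae2 and 21 lower, and the list median was -0.18. The cDNA was primed with oligo-dT, and how fully this primes plastid or mitochondrial transcripts was not tested. Their signals may therefore not follow transcript levels. The count of 27 went to 16 when probe sets were not filtered on signal. Plastid genes are bright, and bright genes were called more often: of genes with a mean signal of at least 100, 29.0% were called and 15.1% were lower in iae2, while of the 56 plastid genes that bright 5 were higher and 19 lower. petN, for a small subunit of the cytochrome b6f complex, had 202.3, 227.1 and 210.3 in iae1 and 71.8, 86 and 100.5 in iae2 (log2 difference -1.18 ± 0.11, adjusted p = 5.39e-06). rpoC2, for a subunit of the plastid RNA polymerase, had 116.4, 144.6 and 108.3 against 59.8, 48.8 and 54.3 (-0.98 ± 0.11). ccsA, whose product attaches heme to c-type cytochromes, differed most and in the other direction. It had 727.3, 677.7 and 622.9 in iae1 and 2642, 2573 and 2428 in iae2 (1.89 ± 0.08, adjusted p = 4.56e-09), its call was kept with the GAPDH ratio in the model, and B1798 (792.6, 710.7 and 833.6) stood near iae1.

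By role, the lower calls were spread over the plastid complexes. Of 15 ribosomal protein genes 6 were lower and 2 higher, of 5 photosystem I genes 3 were lower and 1 higher, and of 15 photosystem II genes 2 were lower and 1 higher. The NDH complex, a plastid relative of respiratory complex I, had 2 of 8 lower and 0 higher, with ndhE at -0.62. The cytochrome b6f complex had 2 of 6 lower, the RNA polymerase 1 of 3 and the ATP synthase 1 of 5, with 0 higher in each. Medians of the roles lay between -0.26 for the ribosomal proteins and -0.05 for photosystem II. rps18, a ribosomal protein gene, rose from 334 ± 40.1 (SD, n = 3) to 521 ± 35.1 (0.62). With the GAPDH ratio in the model ccsA was the plastid gene that stayed called.

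**Figure D5:**
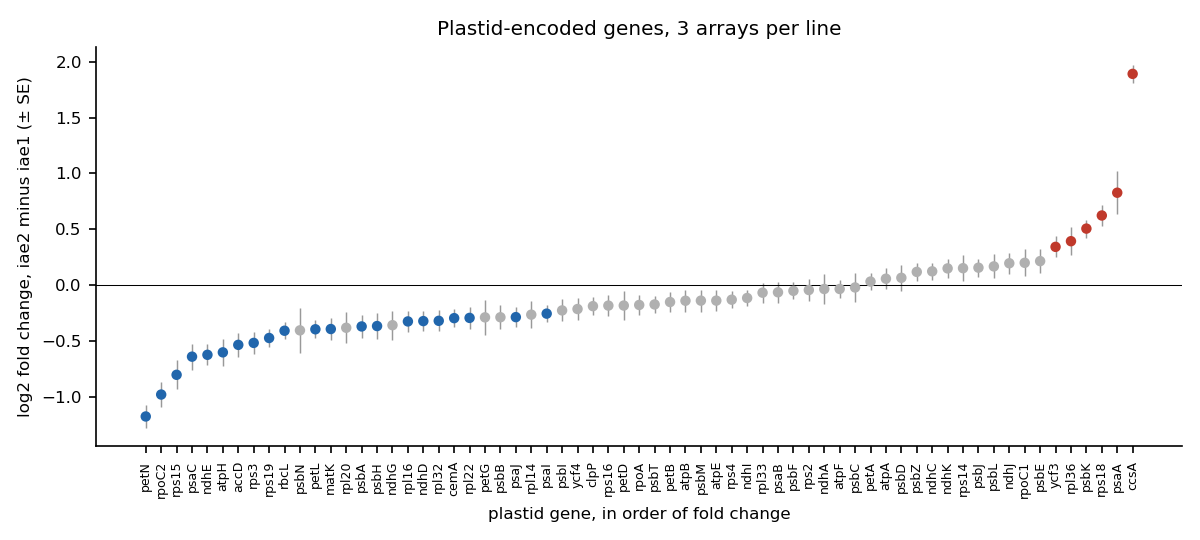
Each point is a tested plastid gene with its log2 fold change, iae2 minus iae1, and its standard error from 3 arrays per line, in order of the change, in red where called higher in iae2, blue where called lower and grey where not called. The 21 blue points run from petN at -1.18 upward, and ccsA stands alone at 1.89.

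In the mitochondrial genome 3 of 11 tested genes were higher in iae2 and 4 lower, with a median of -0.05. nad4, for a subunit of respiratory complex I, had 430.3, 423.5 and 452.3 in iae1 and 224.3, 228.4 and 257.7 in iae2 (log2 difference -0.84 ± 0.08, adjusted p = 7.71e-06). Other complex I genes went the other way: nad1 (0.82, adjusted p = 0.000302) and nad4L (0.36, adjusted p = 0.0384) were higher in iae2. nad6 (0.01) and nad9 (0.16) did not pass, and these genes were named after their values were seen. cox1, for a subunit of cytochrome c oxidase, had 619, 626.9 and 616.3 against 419.7, 377.7 and 411.3 (-0.61 ± 0.07). ccb452, of cytochrome c maturation, was higher in iae2 by 0.63, read by probes that can cross-hybridise. AT2G07777 and AT2G07741, both higher in iae2, lie in the stretch of chromosome 2 known to hold a copy of mitochondrial DNA, and signals of such copies cannot be told apart by these probes.

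Few genes nearest to the known biology of transposons could be read by name. Of 25 loci in each of the DNA methylation and DNA repair lists, 1 and 5 were named on the array. Others may be among the 6069 tested probe sets with no gene name. Of the DNA methylation and silencing list DME was tested (0.10, adjusted p = 0.657), and of the DNA repair list 4 genes were, among them ATLIG4 (-0.26, adjusted p = 0.164), TOP3A (-0.23, adjusted p = 0.268) and RAD4 (-0.05, adjusted p = 0.830), with 0 called. PRL, the tested cell cycle gene and a replication helicase subunit, had a difference of 0.28 (adjusted p = 0.112). Hormone and clock genes were also few. WES1, an auxin-conjugating enzyme gene, was lower in iae2 by -0.32 (adjusted p = 0.0108), while GH3.3 (-0.01), IAA29 (0.02), the ethylene factor gene EIN3 (-0.22, adjusted p = 0.0839) and the clock gene GI (-0.12) did not pass.

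Transcription factor families were called at about the share of all tested genes, which was 20.2%. Of 6 WRKY genes WRKY22 was lower in iae2, from 67.3 ± 3.24 (SD, n = 3) to 45.0 ± 4.40 (log2 difference -0.45, adjusted p = 0.00702), and of 5 bHLH genes bHLH121, a regulator of iron uptake, was higher, from 87.3 ± 6.09 to 130 ± 9.00 (0.49, adjusted p = 0.00186). Of 9 homeobox and MADS genes AGL18 (-0.40) and AGL87 (-0.40) were lower, calls lost without iae1 replicate 3 among others (adjusted p up to 0.105 and 0.168). The tested NAC gene did not pass. Of 18 membrane transporters 2 were higher and 4 lower, a count of 6 that went to 2 or 3 without iae1 replicate 1 or 3 or iae2 replicate 1 or 3, and to 2 with no filter. The sugar transporter gene SWEET2 fell from 78.8 ± 11.0 to 43.3 ± 1.69 (-0.67), and SAG29, of the same family, was lower by -0.54 (adjusted p = 0.0242), and failed when iae1 replicate 2 or 3 or iae2 replicate 2 was dropped (up to 0.0914).

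Of 6 tested markers for parts of the plant 2 were called. The summed signal of the 3 tested root markers was 3972 to 4209 in iae1 and 3325 to 3684 in iae2, with 1 of 3 called: PYK10, a beta-glucosidase gene of the root and hypocotyl, was lower by -0.25 (adjusted p = 0.0319, up to 0.126 in leave-one-out fits). EXPA7 (0.15) and AT5G17820 (-0.16) did not pass, and nearly all of the sum is the signal of PYK10. The summed signal of the 2 tested green tissue markers, RCA and LHCB4.2, was 4015 to 4651 in iae1 and 5176 to 5692 in iae2, and LHCB4.2 alone was called, RCA having a difference of -0.12. The meristem marker LAS was at 36.5 ± 3.44 (SD, n = 3) in iae1 and 35.4 ± 6.29 in iae2. Markers of xylem, seed and flower had no tested member, and the part of tissue makeup in the results was not tested.

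Genes with at least 2-fold change were found on all 5 nuclear chromosomes. Only probe sets with 1 gene could be placed, which leaves out 75 of the 197 called 2-fold probe sets. The placed genes with such a change made up 1.07% of tested genes on chromosome 3 and 1.67% to 1.76% on the other nuclear chromosomes, beside 1.60% over all 5. Whether they cluster was not tested. The tested genes in order were divided into blocks of 50, of which 145 were full. Of these, 72 held no gene with a called 2-fold change, 41 held 1, 22 held 2 and 10 held 3 or more, with 4 as the most. The blocks with 4 were on chromosome 2, with AT2G07140 lower and AT2G07777, AT2G07741 (1.02) and PIP (1.26) higher in iae2, and on chromosome 4, with AOP3 lower and AT4G02360 (1.23), AT4G02450 (1.54) and AT4G02540 (1.13) higher. Of the 8 blocks with 3, a block on chromosome 1 held AT1G63880 (1.20), AT1G64360 (1.57) and AT1G64370 (1.09), all higher in iae2.

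Of the 118 placed genes with at least 2-fold change, 1.60% of 7371, 6 pairs were at most 2 places apart along the ordered genes. Whether that is more than this share alone would give was not tested. AT2G25450 and AT2G25510, successive among the tested named genes of chromosome 2 and not shown to be adjacent there, were both higher in iae2 (log2 difference 2.18 and 5.62). AT5G37990 and AT5G38020, both SABATH methyltransferase genes, were higher by 2.27 and 1.37, AT1G58150 and ZW9 by 1.87 and 3.16, and AT1G64360 and AT1G64370 by 1.57 and 1.09. The MD-2-related genes AT5G23830 and AT5G23840 changed in opposite directions (3.01 and -1.39). So did AT1G12010 and AT1G12080 (1.34 and -1.09). Genes outside the naming rule in these pairs were chosen after their values were seen.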

How the data were processed

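RNA was measured on Affymetrix ATH1 arrays. The values are the intensity signals deposited by the authors, on a linear scale. Per the labels, extraction used phenol and SDS, and biotin-labelled cRNA was made from oligo-dT primed cDNA. How probes were summarised is not given in the sources used here. After trimming 2% from both ends the mean was 100 on every array, so a common scaling preceded deposition. Array medians were 36.6 to 38.5.

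The 64 AFFX controls were left out. Signals were taken as log2(value + 16), without further normalization, and fitted for the 6 arrays with limma 3.58.1 in R 4.3.3 (lmFit, eBayes with an intensity trend). Tests were two-sided, with Benjamini-Hochberg adjustment over 13876 probe sets. All adjusted p-values are from limma. RNA quality was compared by exact permutation tests. On simulated data with independent noise, the fit recovered 52 of 100 changes of 0.5 and 92 of 100 changes of 1 on the log2 scale. It made 4 false calls. Smaller changes and differences in RNA quality were not simulated. The number of arrays limits precision. No label says that replicates are separate cultures. The p-values therefore reflect only the spread among these samples, possibly a technical spread.

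Gene names came from the platform annotation and a TAIR10.1 gene table. No coordinates are given because the sources name no build. Named genes were the 14 largest rises and falls among called probe sets with 1 gene and no overlap, called members of the 48 lists with at least 2-fold change, up to 3 further members of each list by adjusted p, the 2-fold genes of 3 blocks rich in them (2 with 4 genes, and, of 8 with 3, the 1 with the most called genes), and the leading unnamed probe set in each direction. The comparison and the lists were chosen with earlier results of these data known, and symbols matched to wrong families were removed after values were seen. Lists of lipid transfer proteins, aquaporins, disease resistance genes, MYB factors and ERF factors had no tested member. They were matched by gene symbol or synonym, so tested genes of these families with only a locus name, or none, were not counted. No replicate block was in the fit. Figures were drawn with matplotlib 3.10.9 in Python 3.11.15.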

Additional observations from a re-analysis of the deposited data

How the results depend on the processing

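The count of 2940 called probe sets was 2084 (without iae2 replicate 2) to 2440 when each array was left out in turn, and that of 197 with at least 2-fold change was 196 to 208. With values below 16 set to 16, 317 probe sets had at least 2-fold change (199 higher and 118 lower in iae2), against 305 (192 and 113) with log2(value + 4) and 80 (53 and 27) with log2(value + 64). With the GAPDH ratio as a covariate 38 were called, all with at least 2-fold change (30 and 8). At an adjusted p below 0.01, 1609 were called. With array medians set equal the called split was 1394 higher and 1438 lower, and the median of all tested probe sets lay between -0.0408 and 0.00307 in every setting. The other settings gave 2298 (no filter) to 3030 calls (array weights).

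The deviations of same-numbered arrays from their line's mean correlated at 0.146, -0.0506 and 0.0828, so the numbers were not taken to pair the arrays. A replicate block gave 3058 calls, 2831 of them shared, and 197 with at least 2-fold change. The 28 leading genes kept their calls in each setting that tested them, other than the GAPDH covariate, where 13 of 28 did. In that setting, of the 102 named probe sets called in the main fit, 85 lost their call, and COR47, also no longer called, reversed, to 0.10. The calls of PYK10, PRXR1, RALFL33, HCT and DFR were also lost with array medians set equal. The cause of these losses was not tested.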
